A study of Mus musculus with 4 samples.

Results

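The 4 immunoglobulin light-chain constant genes Igkc, Iglc1, Iglc2 and Iglc3 were followed in single-cell RNA libraries of tumour-infiltrating leukocytes. The genes were taken by name, as 4 of the 33696 features in the matrices (Igkc, ENSMUSG00000076609; Iglc1, ENSMUSG00000105906; Iglc2, ENSMUSG00000076937; Iglc3, ENSMUSG00000105547). Their unique molecular identifier (UMI) counts, in which each UMI stands for 1 captured RNA molecule, were read in B-lineage cells. A cell counted as B-lineage when at least 1 UMI of Mzb1, Derl3, Tnfrsf17, Cd79a or Ms4a1 was detected, which held for 1952 of 48858 kept cells. T cells with none of these 5 genes gave the level that free RNA leaves in cells that do not make antibody.

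The 4 libraries held live CD45+ leukocytes sorted from subcutaneous KPC tumours, 1 library per group. KPC is a mouse pancreatic cancer line, and the hosts were male C57BL/6NHsd mice, 8 to 10 weeks old per the study's methods. Mice were untreated, or received the STING agonist ADU-S100 in 1 intratumoral injection, the agonistic anti-LTβR antibody 4H8 in 4 intraperitoneal injections until day 10, or both agonists (combination). Tumours were resected on day 14, and 10 tumours were pooled per group, so that single animals cannot be told apart. The groups have no replicate libraries and were not tested against each other, and every interval below is a 95% interval that covers counting error only.

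A B cell carries on each antibody molecule a pair of identical heavy chains and a pair of identical light chains, and the light chain is either kappa or lambda. Each light-chain gene is assembled from a variable, a joining and a constant segment. Kappa is usually rearranged first, and a cell that makes a working light chain generally stops rearranging, so that a B cell and the plasma cells derived from it make 1 light-chain type (light-chain isotype exclusion). In mice kappa is much more frequent than lambda. Igkc is the only kappa constant gene and lies on chromosome 6 in the RefSeq annotation of GRCm38.p6. The lambda locus lies on chromosome 16 in the order Iglc1, Iglc3, Iglv1, Iglc4, Iglc2, Iglv3 and Iglv2. Iglc4 is annotated as a pseudogene, and the Iglv genes are the lambda variable segments.

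The first 120 coding bases of each constant gene are shown because the split of lambda cells by gene depends on how different these sequences are. They were read from 1 GENCODE M21 transcript per gene, 5′ to 3′ on the coding strand. Capitals in Iglc1 and Iglc3 mark the bases that differ from Iglc2.
Igkc: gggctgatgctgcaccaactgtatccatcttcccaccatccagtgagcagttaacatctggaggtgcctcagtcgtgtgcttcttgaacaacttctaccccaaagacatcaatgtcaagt
Iglc1: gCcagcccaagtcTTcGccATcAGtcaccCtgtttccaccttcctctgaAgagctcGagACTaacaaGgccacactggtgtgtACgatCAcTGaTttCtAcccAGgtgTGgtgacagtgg
Iglc2: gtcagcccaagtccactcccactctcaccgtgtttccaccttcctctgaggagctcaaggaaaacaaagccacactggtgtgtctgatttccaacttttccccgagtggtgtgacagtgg
Iglc3: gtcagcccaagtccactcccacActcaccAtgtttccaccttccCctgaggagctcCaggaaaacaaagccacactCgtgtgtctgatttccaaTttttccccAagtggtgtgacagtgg

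In this window Iglc1 differed from Iglc2 at 28 bases and Iglc3 differed from Iglc2 at 7. Over the coding sequences, 96.2% of aligned bases were identical between Iglc2 and Iglc3 (303 of 315). Identity was 73.8% between Iglc1 and Iglc2 and 74.9% between Iglc1 and Iglc3, and it ran from 55.3% to 56.6% between Igkc and the lambda genes. Of the 409 stretches of 50 bases in the Iglc2 transcript, 43 (10.5%) also occurred in Iglc3, whereas 0 of 369 stretches of 90 bases did. No stretch of 50 bases was shared with Iglc1. The split between Iglc2 and Iglc3 is therefore less certain than the split between Iglc1 and either of them, since short reads in the shared stretches cannot be placed.

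The libraries held 8730 to 16322 deposited cells and 52109958 to 85855398 UMIs, and 7524, 13444, 13223 and 14667 cells were kept (untreated, ADU-S100, anti-LTβR, then combination). In the same order, B-lineage cells numbered 156, 137, 611 and 1048, or 2.07%, 1.02%, 4.62% and 7.15% of kept cells. Their median depth was 8396, 8214, 6330 and 3439 UMIs, and that of T cells was 3956, 4304, 3240 and 2004 UMIs, so the combination library was the shallowest. Pairs of libraries shared 34 to 83 cell barcodes, at most 0.539% of a library. Many B-lineage cells rested on a single gene (100, 92, 233 and 479 cells) or also passed a gate for T cells, macrophages, neutrophils or plasmacytoid dendritic cells (83, 72, 178 and 260 cells), and results that turn on these cells are given with and without them.

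Light-chain RNA was higher in both libraries from mice given anti-LTβR than in the untreated and ADU-S100 libraries. Igkc, the kappa constant gene, stood at 1126 UMIs per 1000000 UMIs of all kept cells (CPM) in the untreated library, 802 in ADU-S100, 5765 in anti-LTβR and 8145 in the combination. Its order was thus ADU-S100, untreated, anti-LTβR, combination. No neighbouring intervals overlapped, but the intervals treat UMIs as independent and leave out the sampling of cells. Against the untreated library, Igkc was 5.12-fold higher with anti-LTβR (log2 ratio 2.36, interval 2.34 to 2.37) and 7.23-fold higher with the combination (2.85, 2.84 to 2.87). With ADU-S100 the log2 ratio was -0.49 (-0.51 to -0.47), close to the median of -0.38 over all genes compared in that pair. The combination exceeded anti-LTβR by 0.50 on the log2 scale (0.49 to 0.51). The top cell held at most 6.77% of a library's Igkc UMIs, but the top 10 cells held 42.9% untreated and 46.9% with ADU-S100, against 11.4% with anti-LTβR and 7.75% with the combination. Between 96.5% and 98.2% of Igkc UMIs lay in B-lineage cells.

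Iglc1, the lambda constant gene that comes first in the locus order above, followed the same high and low libraries. It stood at 81.2 CPM untreated, 29.1 with ADU-S100, 603 with anti-LTβR and 602 with the combination. The last 2 libraries were level, with a log2 ratio of -0.00 (-0.02 to 0.02), whereas they were 7.42-fold and 7.41-fold above untreated (log2 ratios 2.89 and 2.89). Without the top cell of each library these log2 ratios were 3.46 and 3.54. With ADU-S100 the log2 ratio was -1.48, but 1 cell held 82.4% of the Iglc1 UMIs of that library and 1 cell held 39.3% of those of the untreated library. Without the top cells the ADU-S100 value was -3.27, and over all deposited cells it was -0.21. The ADU-S100 value for Iglc1 is a value of single cells, not of a population.

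Iglc2 and Iglc3, the near-identical pair, were the lowest of the 4 genes in the untreated library. Iglc2 stood at 13.6 CPM untreated, 10.2 with ADU-S100, 217 with anti-LTβR and 180 with the combination, which is 15.9-fold and 13.2-fold above untreated in the last 2 libraries. Iglc3 stood at 10.1, 34.1, 78.3 and 47.9 CPM, which is 7.72-fold above untreated with anti-LTβR and 4.73-fold with the combination. The high Iglc3 value with ADU-S100 (log2 ratio 1.75 over untreated) came from 1 cell that held 79.4% of the UMIs, and without the top cell of each library it was -0.46. Unlike Igkc, Iglc2 and Iglc3 stood lower in the combination than in the anti-LTβR library, by log2 ratios of -0.27 (-0.30 to -0.23) and -0.71 (-0.78 to -0.64).

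Summed over the 3 lambda genes, the level was 105 CPM untreated, 73.4 with ADU-S100, 898 with anti-LTβR and 830 with the combination. Log2 ratios to untreated were -0.52, 3.10 and 2.98, and the combination stood at -0.11 against anti-LTβR. Over all deposited cells the ADU-S100 value changed sign to 0.15.

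As background, 1.68% of 12287 genes compared were at least 2-fold higher and 0.83% at least 2-fold lower with anti-LTβR than untreated, and all 4 light-chain genes were among the higher ones. With the combination these shares were 2.02% and 1.44% of 11976 genes, and again all 4 light-chain genes were at least 2-fold higher. With ADU-S100 4.3% of 12128 genes were at least 2-fold higher, among them Iglc3, and 7.87% were lower, among them Iglc1. Between combination and anti-LTβR 0.732% were higher and 0.846% lower, and none of the 4 genes passed 2-fold in either direction. A summed level does not separate more B-lineage cells from more RNA in each, and both are given below.

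**Figure D1:**
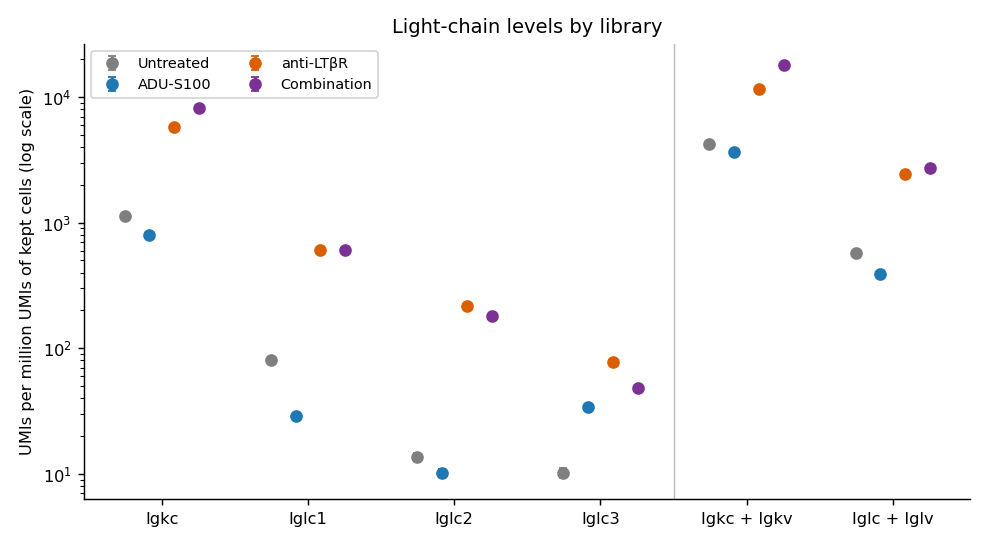
Light-chain levels by library in CPM of all kept cells (log axis), for the 4 constant genes and, right of the line, for constant and variable genes of each chain summed. Points are single libraries and bars are 95% Poisson intervals, mostly smaller than the points. The anti-LTβR and combination points lie above the untreated points for every gene, and the gap is smaller for the sums (4236 against 11578 and 18078 for kappa).

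Constant genes do not hold all of the light-chain RNA in these data. The libraries were made with a 5′ kit, and many UMIs of a light-chain transcript were assigned to its variable gene. Kappa variable genes gave 2.76 UMIs per Igkc UMI in the untreated library, 3.53 with ADU-S100, 1.01 with anti-LTβR and 1.22 with the combination. The lambda values were 4.44, 4.33, 1.70 and 2.29, so both chains split in the same way, high in the first 2 libraries and low in the others. The same order stood within single kappa plasma cells, with medians of 2.60, 2.97, 0.893 and 1.08. The cause of the differing split was not tested.

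The fold differences of the anti-LTβR and combination libraries to untreated were therefore smaller when constant and variable genes were summed, a reading chosen after seeing the data. Kappa then stood at 4236, 3635, 11578 and 18078 CPM, or 2.73-fold above untreated with anti-LTβR (log2 ratio 1.45) and 4.27-fold with the combination (2.09). Lambda stood at 571, 392, 2420 and 2727 CPM, or 4.24-fold and 4.77-fold above untreated. The first 2 lambda values rest on few cells. In the untreated library 3 cells held 18004 of 20993 lambda variable UMIs, and with ADU-S100 4 lambda cells held 18177 of 21628. The direction between the 2 anti-LTβR libraries turned for lambda, from -0.11 with constant genes to 0.17 with the sum, and for kappa the combination was higher in both readings (0.50 and 0.64).

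T cells gave the free-RNA level. The mean Igkc count of a T cell was 0.166 untreated, 0.134 with ADU-S100, 0.484 with anti-LTβR and 0.840 with the combination, and the mean lambda constant count was 0.00663, 0.0127, 0.0770 and 0.0735. Free Igkc RNA was thus higher where B-lineage cells were more frequent, and 13.8%, 12.3%, 39.3% and 54.2% of T cells held at least 1 light-chain UMI. The 99th percentile of T cells was 2, 2, 3 and 4 UMIs. A B-lineage cell was called light-chain-positive above that percentile and with at least 10 light-chain UMIs, a limit that 0 of 1207, 0 of 552, 2 of 1909 and 1 of 1252 T cells passed.

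**Figure D2:**
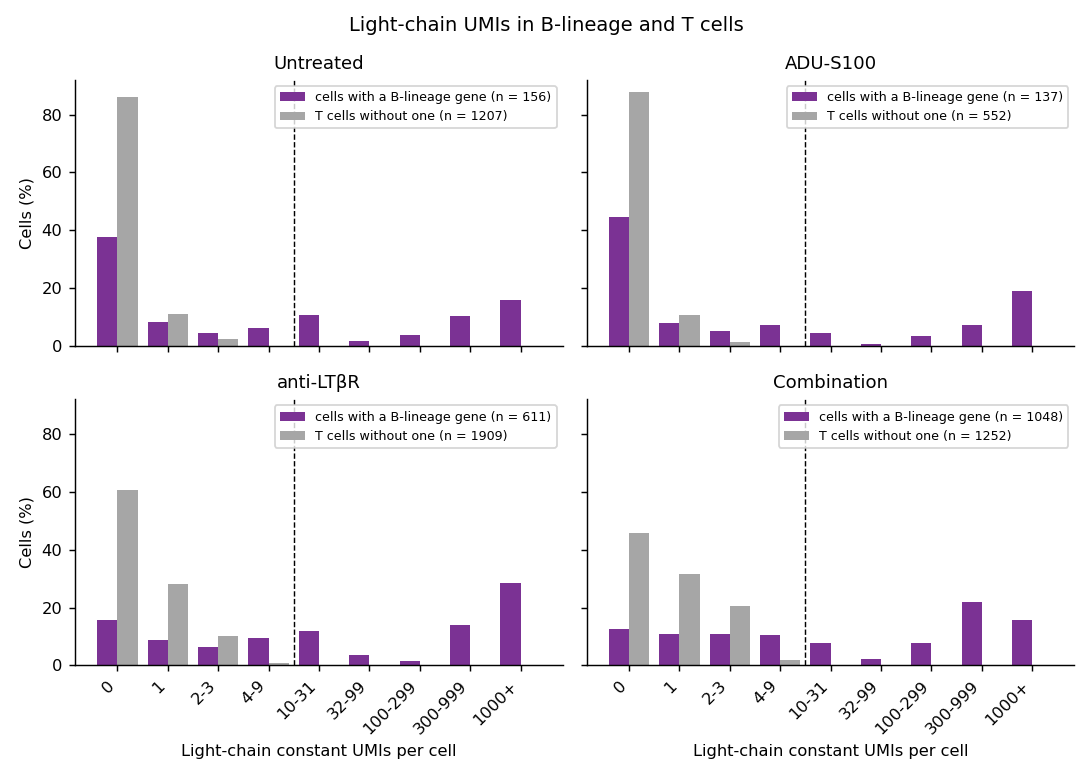
Share of cells (%) by number of light-chain constant UMIs, for B-lineage cells and for T cells without a B-lineage gene, in each library. The dashed line marks the minimum of 10 UMIs. T cells lie left of it in all libraries but for 2 and 1 cells in the anti-LTβR and combination libraries, and B-lineage cells fall on both sides.

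Light-chain-positive cells made up 42.9% of B-lineage cells untreated (67 of 156, interval 35.1 to 51.1), 35.0% with ADU-S100 (48 of 137, 27.1 to 43.6), 59.6% with anti-LTβR (364 of 611, 55.6 to 63.5) and 55.2% with the combination (579 of 1048, 52.2 to 58.3). With all cells thinned to 1000 UMIs and called anew the shares were 60.9%, 53.8%, 57.4% and 61.1% with overlapping intervals, so these shares gave no order of the libraries at equal depth. As a share of all kept cells the values were 0.890%, 0.357%, 2.75% and 3.95%. Most cells with 1 B-lineage gene were negative (16%, 5.43%, 12.4% and 21.5% positive), and most cells with at least 2 were positive (91.1%, 95.6%, 88.6% and 83.7%). Positive cells held medians of 629, 1090, 952 and 555 light-chain UMIs, with maxima between 2814 and 5352. The combination, with the lowest median, was also the shallowest library per cell. With plasma cells thinned to 1000 UMIs, the mean Igkc count per cell was 59.4, 56.2, 99.8 and 99.7 UMIs, but with kappa variable genes counted in the mean was 215, 234, 186 and 206 UMIs. The order of the libraries thus turned with the variable genes, and the Igkc count alone gives no order of kappa RNA per plasma cell.

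Plasma cells, with at least 2 of the secretory and survival genes Mzb1, Derl3 and Tnfrsf17 and without Ms4a1, made up 30, 31, 167 and 251 of the positive cells. The B set, with Ms4a1 (CD20) or the receptor subunit Cd79a and outside the plasma set, made up 22, 12, 173 and 238. It does not separate B cells from plasma cells, since it also held cells without Ms4a1 and cells with many light-chain UMIs. In the combination 169 of 463 kappa cells were in the B set, whereas only 90 of the 463 had Ms4a1 detected. Cells in the plasmacytoid dendritic gate, counted apart, numbered 11, 4, 6 and 4, and the rest 4, 1, 18 and 86. Cells without any B-lineage gene passed the same limit in 12, 6, 30 and 53 cases, which is 0.163%, 0.0451%, 0.238% and 0.389% of such cells.

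**Figure D3:**
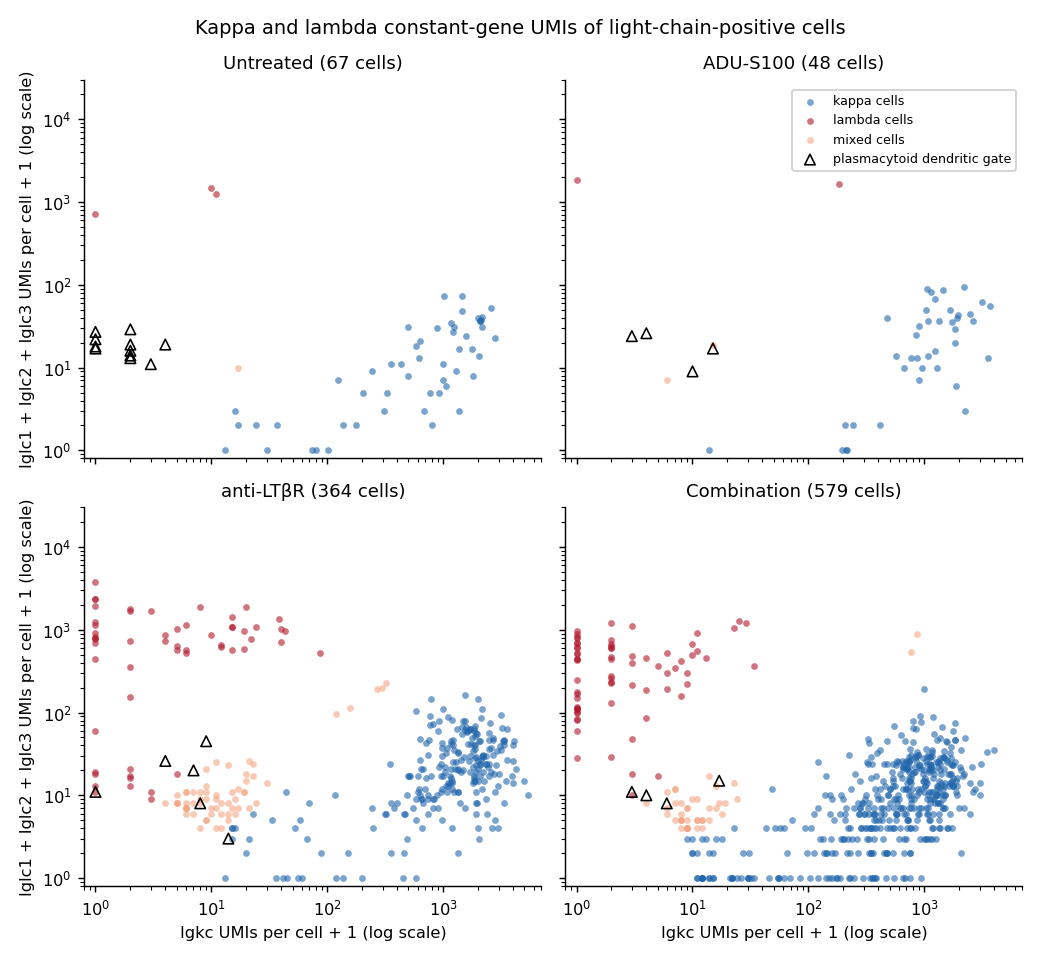
Igkc UMIs (x) against summed Iglc1, Iglc2 and Iglc3 UMIs (y) of each light-chain-positive cell, both plus 1 on log axes, 1 panel per library. Colours give the kappa, lambda and mixed calls and triangles the cells in the plasmacytoid dendritic gate. Kappa cells lie to the lower right and lambda cells to the upper left, and 11 of the 14 untreated lambda cells are triangles at low counts.

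Each light-chain-positive cell was called by its share of lambda UMIs. A cell was called lambda when at least 80% of its light-chain constant UMIs came from Iglc1, Iglc2 and Iglc3, kappa when at most 20% did, and mixed otherwise. Kappa, lambda and mixed cells numbered 52, 14 and 1 untreated, 40, 4 and 4 with ADU-S100, 242, 59 and 63 with anti-LTβR, and 463, 71 and 45 with the combination. Variable genes, which the call did not use, gave the same chain in 50 of 52, 40 of 40, 233 of 242 and 442 of 463 kappa cells, and the opposite chain in 0. In lambda cells they gave lambda in 3 of 14, 2 of 4, 52 of 59 and 68 of 71 and kappa in 0. The rest were mixed by variable genes or held under 10 variable UMIs.

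The lambda share, lambda cells of kappa plus lambda cells, was 21.2% untreated (14 of 66, interval 12.1 to 33.0), 9.09% with ADU-S100 (4 of 44, 2.53 to 21.7), 19.6% with anti-LTβR (59 of 301, 15.3 to 24.5) and 13.3% with the combination (71 of 534, 10.5 to 16.5). The untreated value rested on cells that passed the plasmacytoid dendritic gate, which were 11 of its 14 lambda cells. Without cells that passed any other gate the shares were 4.76% (2 of 42), 6.06% (2 of 33), 19.9% (53 of 266) and 13.4% (63 of 470). The untreated value thus fell below both anti-LTβR libraries, with a ratio of anti-LTβR to untreated of 4.18 (1.06 to 16.5) and of the combination to untreated of 2.81 (0.714 to 11.1). Called from variable genes in place of constant genes, the shares were 7.14% (4 of 56), 4.26% (2 of 47), 18.4% (57 of 310) and 13.6% (72 of 531). By variable genes the ratio of anti-LTβR to untreated was 2.57 (0.973 to 6.81). It was 2.48 (0.624 to 9.90) in the plasma set and 4.49 (0.642 to 31.4) in the B set. These intervals include 1.

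Between the 2 libraries with many cells, the lambda share of the combination was 0.678 times that of anti-LTβR (0.495 to 0.930), and 0.673 times (0.482 to 0.939) without the other gates. With variable genes the ratio was 0.737, and its interval reached 1 (0.537 to 1.01). In the plasma set the shares were 6.67% (2 of 30), 0 of 31 cells, which allows a share of up to 9.68% by 3 counts and 11.2% by the exact interval, then 16.6% (27 of 163) and 10.8% (27 of 250). There the ratio of combination to anti-LTβR was 0.652 (0.397 to 1.07). In the B set the shares were 4.76% (1 of 21), 20% (2 of 10), 21.4% (25 of 117) and 14.2% (28 of 197), with a ratio of 0.665 (0.408 to 1.08). The combination was lower in each of these readings, but the intervals within the plasma and B sets included a ratio of 1, and spread between mice is not part of any interval.

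By isotype, the lambda share of the anti-LTβR and combination libraries lay apart over IgM cells called kappa or lambda and close together in IgG cells. A cell took the class with most heavy-chain constant UMIs, with at least 3. IgM cells were lambda in 66.7% of cases untreated (10 of 15), 40.0% with ADU-S100 (4 of 10), 35.2% with anti-LTβR (25 of 71) and 12.7% with the combination (19 of 150). The ratio of combination to anti-LTβR was 0.360 (0.213 to 0.608). Mixed cells, which these shares leave out, were 57 of 128 IgM cells with anti-LTβR (44.5%) and 38 of 188 with the combination (20.2%). With mixed cells counted in, lambda cells were 25 of 128 and 19 of 188 IgM cells. How far the ratio turns on the mixed cells was not tested. Among IgM plasma cells alone the shares were 24.2% with anti-LTβR and 10.8% with the combination, with a ratio of 0.446 (0.183 to 1.09), an interval that includes 1. Without the other gates the untreated value was 0 of 3 cells (interval 0 to 70.8%), and the others were 33.3% (2 of 6), 31.7% (20 of 63) and 12.7% (17 of 134).

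IgG cells, which have switched class, were lambda in 2.22% of cases untreated (1 of 45), in 0 of 29 with ADU-S100, which allows a share of up to 10.3% by 3 counts and 11.9% by the exact interval, in 13.7% with anti-LTβR (28 of 204) and in 14.3% with the combination (48 of 335). The combination to anti-LTβR ratio was 1.04 (0.678 to 1.61). IgA cells were few, with 2 of 5, 0 of 5, 6 of 26 and 4 of 48 lambda cells. Within the anti-LTβR library the share was 2.57 times as high in IgM as in IgG cells (1.61 to 4.09), whereas within the combination the ratio was 0.884 (0.539 to 1.45). Mixed cells, which the shares leave out, were 57 of 128 IgM cells but 2 of 206 IgG cells with anti-LTβR. Among plasma cells alone the IgM to IgG ratio with anti-LTβR was 1.77 (0.833 to 3.77), an interval that includes 1.

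**Figure D4:**
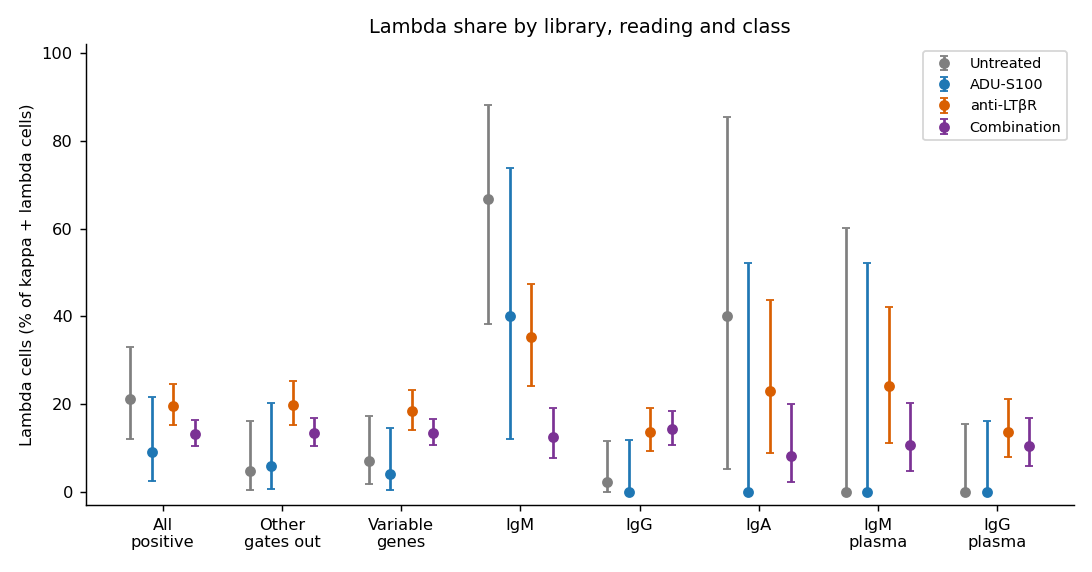
Lambda cells as % of kappa plus lambda cells in each library, with exact 95% binomial intervals, for all light-chain-positive cells, without cells in other gates, called from variable genes, by isotype, and by isotype among plasma cells. The untreated point falls from 21.2% to 4.76% when other gates are left out, and the IgM points with anti-LTβR and combination lie at 35.2% and 12.7%.

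The lambda share was also read by the leading IgG gene. Cells led by Ighg1 were lambda in 17 of 94 cases with anti-LTβR (18.1%, 10.9 to 27.4) and 17 of 145 with the combination (11.7%, 6.98 to 18.1). Cells led by Ighg2b were lambda in 2 of 34 (5.88%, 0.720 to 19.7) and 2 of 78 (2.56%, 0.312 to 8.96). Cells led by Ighg2c were lambda in 9 of 75 (12%, 5.64 to 21.6) and 23 of 104 (22.1%, 14.6 to 31.3). With anti-LTβR all 3 intervals overlapped. In the combination the intervals of Ighg2b and Ighg2c did not overlap, and that of Ighg1 overlapped both. In the combination 6 of 8 cells led by Ighg3 were lambda, against 0 of 1 with anti-LTβR.

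Among lambda cells Iglc1 led in 103, Iglc2 in 31 and Iglc3 in 14 over the 4 libraries. These counts include 11, 2, 3 and 1 lambda cells in the plasmacytoid dendritic gate, all led by Iglc2 or Iglc3. The variable gene followed the constant gene. Iglc1 went with Iglv1 in 3, 1, 38 and 59 cells and with Iglv2 in none. Iglc2 went with Iglv2 in 11 cells with anti-LTβR and 7 with the combination, and with Iglv3 in 1 cell of the combination. Iglc3 went with Iglv1 in 1, 2 and 1 cells of the treated libraries and with Iglv2 in 1 cell with anti-LTβR. In the order of the locus Iglv1 lies between Iglc3 and Iglc4, with Iglc1 on the far side of Iglc3, and Iglv2 and Iglv3 lie beyond Iglc2. The other 23 lambda cells held under 10 lambda variable UMIs, namely 11 untreated, 2 with ADU-S100, 7 with anti-LTβR and 3 with the combination.

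The untreated library shows the difference cell by cell. Its 3 lambda cells with a lambda variable gene held 1225, 1435 and 685 Iglc1 UMIs and 5573, 8980 and 3442 Iglv1 UMIs. Its other 11 lambda cells held 10 to 28 lambda constant UMIs each, nearly all Iglc2 and Iglc3, with 0 UMIs of Iglv1, Iglv2 and Iglv3, and all of them passed the plasmacytoid dendritic gate. With ADU-S100, the cell behind the Iglc3 level held 1842 Iglc3 and 9502 Iglv1 UMIs, and the cell behind the Iglc1 level held 1631 Iglc1, 183 Igkc and 8658 Iglv1 UMIs.

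Cells in the plasmacytoid dendritic gate, with at least 2 of Siglech, Ccr9, Klk1, Cox6a2 and Pacsin1, carried Iglc2 and Iglc3 in every library. Iglc3 stood at 2.43 UMIs per cell untreated, 1.98 with ADU-S100, 2.13 with anti-LTβR and 1.35 with the combination, against at most 0.00471 in T cells. Iglc2 stood at 1.77, 0.683, 1.05 and 1.09 UMIs per cell, against at most 0.0200 in T cells. Of the 81, 63, 60 and 34 cells in the gate, 42.0%, 31.7%, 41.7% and 44.1% held a lambda constant UMI, against 0.663% to 6.71% of T cells. Their median depth was 5841, 5745, 5169 and 2459 UMIs, and with cells thinned to 1000 UMIs the shares were 33.3%, 19.0%, 29.3% and 32.3%, against 0.0842% to 2.34% of T cells.

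These cells held almost no lambda variable RNA. Over all cells of the gate, lambda variable UMIs numbered 2, 4, 11 and 3 beside 346, 170, 205 and 85 lambda constant UMIs, a ratio of 0.00578 to 0.0537. T cells held 1.53 to 4.12 lambda variable UMIs per constant UMI, and lambda plasma cells 1.84 to 5.37. Kappa variable genes stood at 0.395 to 0.824 UMIs per cell of the gate, within the range of T cells (0.302 to 0.951). The gate therefore differed from both in which part of the lambda locus was counted, and Iglc1 took only 1.18% to 6.83% of its lambda constant UMIs.

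**Figure D5:**
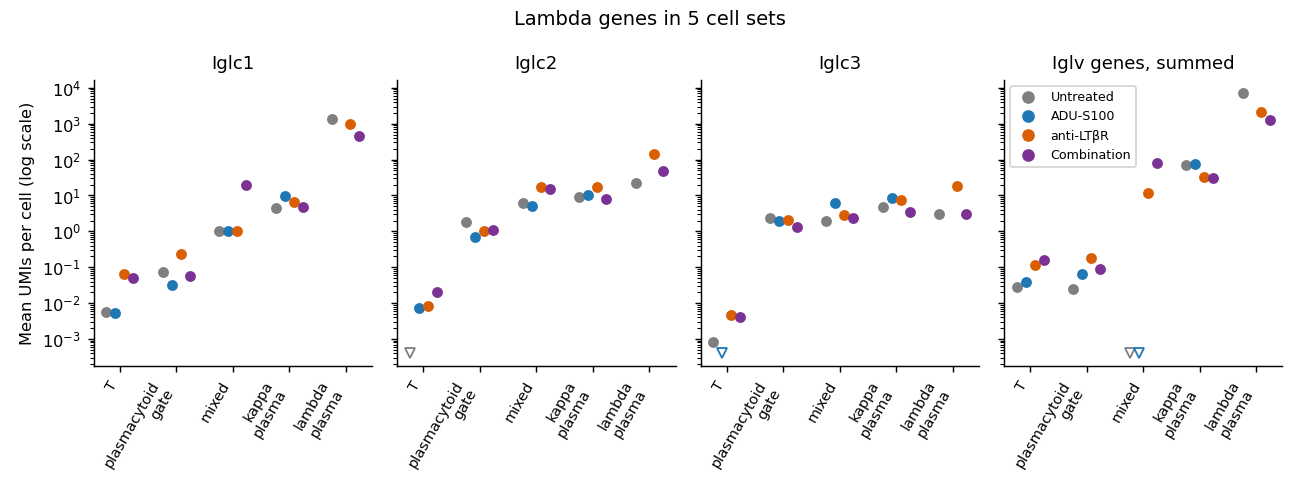
Mean UMIs per cell (log axis) of Iglc1, Iglc2, Iglc3 and the summed lambda variable genes in T cells, cells in the plasmacytoid dendritic gate, mixed cells, kappa plasma cells and lambda plasma cells, 1 point per library. Open triangles at the bottom mark 0 UMIs. The plasmacytoid dendritic gate lies far above T cells for Iglc2 and Iglc3 and near them for the variable genes.

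Mixed cells were mostly weakly expressing B cells. With anti-LTβR 54 of 63 and with the combination 36 of 45 had Ms4a1 detected, and 57 and 38 were IgM cells. Their median light-chain count was 18 and 14 UMIs, against 1344 and 689 in kappa cells. Medians with anti-LTβR were 10 Igkc, 5 Iglc2, 3 Iglc3 and 1 Iglc1 UMIs, and with the combination 8, 3, 2 and 1. Iglc2 led the lambda side by median in both. In 39 and 33 of them the variable UMIs numbered under 10, so that variable genes gave no call, and 18 and 10 were kappa by variable genes. Another 1 and 2 were mixed by variable genes, and 5 cells with anti-LTβR were lambda. These 5 were IgM cells with 118 to 319 Igkc and 94 to 226 Iglc2 UMIs, at 1.26 to 1.52 Igkc UMIs per Iglc2 UMI. A few mixed cells held many UMIs, up to 548 and 1759, and doublets were removed only by score.

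Kappa plasma cells carried lambda constant RNA well above the free-RNA level. The mean was 18.6 lambda constant UMIs per kappa plasma cell untreated, 28.3 with ADU-S100, 31.4 with anti-LTβR and 16.1 with the combination, against 0.00663 to 0.0770 in T cells. Between 92.9% and 96.3% of kappa plasma cells held at least 1 such UMI. They also held 1.05 to 3.69 lambda variable UMIs per lambda constant UMI, against 0.00578 to 0.0537 in the plasmacytoid dendritic gate. The median depth of kappa plasma cells was 8309 to 20195 UMIs over the libraries, against 2004 to 4304 in T cells. The part of depth in the lambda counts was not tested. Iglc2 gave 49.2% of the lambda constant UMIs untreated, 35.3% with ADU-S100, 55.5% with anti-LTβR (17.4 of the 31.4 UMIs per cell) and 48.8% with the combination. With ADU-S100 Iglc1 gave nearly the same part (35.1%).

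In the other direction, lambda plasma cells held on average 14.8 Igkc UMIs with anti-LTβR (27 cells, median 11) and 4.19 with the combination (27 cells, median 1), against 0.484 and 0.840 in T cells. In lambda plasma cells of the combination the median thus lay near the T cell mean and the mean above it. In those of the anti-LTβR library both lay above it. Lambda cells of the B set did not show this contrast, with means of 3.24 and 4.36 Igkc UMIs (anti-LTβR, then combination) and a median of 1 in both.

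The amount of light-chain constant RNA per heavy-chain constant RNA was higher in kappa than in lambda plasma cells. Among IgG plasma cells the median ratio in kappa cells was 0.499 untreated, 0.465 with ADU-S100, 0.661 with anti-LTβR and 0.615 with the combination. In lambda cells it was 0.397 with anti-LTβR (16 cells, quartiles 0.340 and 0.514) and 0.348 with the combination (15 cells, 0.294 and 0.366), below the lower quartiles of kappa cells (0.543 and 0.512). With variable genes counted in, the medians in kappa cells were 1.70 untreated, 2.17 with ADU-S100, 1.29 with anti-LTβR and 1.33 with the combination, so that the order of the libraries turned. In lambda cells of the last 2 libraries they were 1.16 and 1.17, a smaller gap to kappa cells than with constant genes. Among the few IgA plasma cells the order turned with variable genes counted in, with 1.02 in kappa and 1.12 in lambda cells with anti-LTβR (10 and 3 cells) and 1.01 and 1.44 with the combination (30 and 4 cells). With constant genes IgM cells gave the same order as IgG cells, with 0.530 and 0.503 in kappa cells and 0.328 and 0.277 in lambda cells.

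Kappa cells used many variable genes. The leading Igkv gene was 1 of 21, 14, 45 and 58 different genes among 51, 40, 233 and 445 kappa cells, out of 160 Igkv genes in the files. The gene leading most cells, named here after the values were seen, led 27.5% of kappa cells untreated (Igkv4-74, 14 cells), 15.0% with ADU-S100 (Igkv1-117 and Igkv10-96 tied at 6 cells each), 23.6% with anti-LTβR (Igkv12-44, 55 cells) and 12.6% with the combination (Igkv8-30, 56 cells). Within a cell the leading gene took a median of at least 99.6% of the kappa variable UMIs.

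Other genes of light-chain expression were compared over light-chain-positive cells, with immunoglobulin genes left out of the total, from a list of 39. The list holds partners of the receptor, recombination genes, transcription factors and assembly factors of the endoplasmic reticulum. With ADU-S100, 26 were compared and 1 was at least 2-fold higher, Txndc5, a disulfide isomerase (log2 ratio 1.04, 0.842 to 1.24). With immunoglobulin genes in the total it stood at 0.88 and no listed gene passed 2-fold. The background there was 2.76% of 796 genes higher and 1.26% lower. With anti-LTβR, 30 were compared and 3 were at least 2-fold higher. They were the B cell transcription factors Pax5 (3.43, 2.47 to 4.85, from 345 and 7 UMIs), Ikzf3 (1.72, 1.27 to 2.23, from 584 and 41) and Ebf1 (1.19, 0.896 to 1.51, from 963 and 98). The background was 1.72% of 2620 genes higher and 1.91% lower. The minimum of 200 UMIs over both libraries bears on this count. Most UMIs of these 3 genes came from the larger anti-LTβR library, and Pax5 would have been under the minimum at its untreated level (37.0 UMIs in all), whereas Ikzf3 and Ebf1 would have passed (217 and 518 UMIs). Dntt, which stood lower, was left out and would have passed at its untreated level (233 UMIs). The counts are therefore descriptions and are not read against the background.

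With the combination, 29 were compared and 1 was at least 2-fold higher, Ikzf3 (1.34, 0.891 to 1.85, from 428 and 41 UMIs), beside 1.29% of 2488 genes higher and 1.57% lower. At its untreated level Ikzf3 would have had 208 UMIs, just over the minimum. Pax5 stood at 2.57 (1.59 to 4.00) with the combination but had 181 and 7 UMIs, under the minimum of 200. None of the listed genes compared was at least 2-fold lower in these 3 comparisons, for which the same limit holds. The median over the list was 0.24 with ADU-S100, 0.27 with anti-LTβR and 0.25 with the combination, beside 0.01, 0.06 and 0.03 over all genes compared. Jchain, which joins antibody units, stood at 0.17, 0.05 and -0.09, and the secretory transcription factor Xbp1 at 0.28, 0.33 and 0.35. The B and plasma sets make up different shares of the positive cells in these libraries, and their part in the values was not tested. Rag1, Rag2 and Dntt, which act in the rearrangement of the genes, stayed under the minimum. Dntt, with 44 UMIs untreated, 30 with anti-LTβR and 12 with the combination, stood at -2.65 (-3.37 to -1.95) and -3.86 (-4.96 to -2.96) against untreated. Cells in the plasmacytoid dendritic gate also made up fewer of the positive cells there, 6 of 364 and 4 of 579 against 11 of 67 untreated, and their part in the Dntt values was not tested.

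Lambda and kappa plasma cells of 1 library were also compared for the listed genes, with 27 lambda cells in each library against 136 kappa cells with anti-LTβR and 223 with the combination. None of the 27 and 26 listed genes compared passed 2-fold in either direction. Over all genes 0.221% of 904 were higher and 2.88% lower in lambda cells with anti-LTβR, and 0.497% of 805 higher and 1.49% lower with the combination. Of the 26 listed genes compared in both libraries, 7 had intervals that did not overlap between them, and all 7 stood lower in the combination. Over all 772 genes compared in both, 6.35% were lower in this way and 5.44% higher, and the median gene stood at 0.10 with anti-LTβR and -0.04 with the combination. Intervals are narrower for genes with more UMIs, so the listed share is not read against that of all genes. Among the 7, the chaperone Hspa5, which binds unassembled chains, stood at 0.68 (0.564 to 0.798) with anti-LTβR and at -0.03 (-0.187 to 0.122) with the combination. The others were Irf4 (0.20 and -0.68), Creld2 (0.16 and -0.60), Txndc5 (0.65 and 0.06), Xbp1 (0.41 and 0.04), Hsp90b1 (0.36 and 0.18) and Jchain (0.23 and 0.09).

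Across 24 points (4 libraries by 6 gated cell sets, which share libraries and depth), the genes outside immunoglobulins whose log2(CPM + 1) was most like that of Igkc were Jchain (Pearson r = 0.99), Gm30211 (0.98), Cacna1h (0.96), Pou2af1 (0.96) and Pycr1 (0.96). Iglc1 stood at r = 0.98 with Igkc, whereas Iglc2 and Iglc3 stood at 0.87 and 0.79. Iglc2 and Iglc3 stood at 0.96 with each other. These values describe the cell sets, among which the plasmacytoid dendritic set held Iglc2 and Iglc3 as given above beside 0.383, 0.762, 1.88 and 1.97 Igkc UMIs per cell.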

How the data were processed

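Per the labels and the file headers, the authors deposited raw UMI counts per gene and cell from Cell Ranger (8.0.1 in the file headers, 7.1.0 with mm10 in the processing notes), made with a 5′ kit from CD45+ cells. The count matrices were used as deposited. The annotation behind them is later than the transcripts used for sequences, so no coordinates are printed. Cells with 300 to 5000 genes and at most 6% mitochondrial UMIs were kept. The automatic doublet caller (scrublet in scanpy 1.11.5) marked 1 cell in all, so cells with the highest scores were removed at 0.4% per 1000 cells. CPM were taken over all kept cells, and genes with at least 200 UMIs over both libraries were compared. With 1 library per group no test was run. Intervals are exact Poisson or binomial (Clopper-Pearson), and log-normal for ratios of shares, at the 95% level. A value of 0 was read against 3 counts.

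T cells had at least 2 of Cd3d, Cd3e, Cd3g, Trac, Trbc1 and Trbc2, macrophages at least 3 of 6 genes (among them Csf1r, Adgre1 and Cd14), and neutrophils at least 4 of Csf3r, Retnlg, Cxcr2, S100a8, S100a9 and G0s2. The text names the 4 genes, genes of the listed sets, and the 5 genes most like Igkc. Other names are said to have been chosen after seeing values. The members and lists were chosen with earlier results of these data known. Alternatives were doublet removal, cell limits, totals, leaving out the top cell, gates, floors, call limits, thinning to 1000 UMIs and variable genes. Some items are not reported here. The study made 2 such experiments, of which 1 was analysed here. Scripts used Python 3.11.15, numpy 2.4.6, pandas 2.3.3 and scipy 1.17.1, and were tested on simulated data.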

Additional observations from a re-analysis of the deposited data

Results flagged for a closer look

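For some light-chain values the direction with ADU-S100 differed between the absence and presence of anti-LTβR. For Igkc the log2 ratio was -0.49 for ADU-S100 over untreated and 0.50 for the combination over anti-LTβR, a difference of 0.99. With constant and variable genes summed, the difference was 0.86 for kappa (-0.22 and 0.64) and 0.72 for lambda (-0.55 and 0.17). For Iglc3 it ran the other way, with 1.75 and -0.71 and a difference of -2.46, and the first of these values was -0.46 without the top cell of each library. Iglc1 (-1.48 and -0.00), Iglc2 (-0.42 and -0.27) and the lambda constant sum (-0.52 and -0.11) did not change direction in the main reading. The second Iglc1 value had an interval that included 0, and it was 0.08 without the top cell and 0.03 without doublet removal. Over all deposited cells the lambda constant sum stood at 0.15 and -0.13, so these directions turned with the processing. The median over all genes compared was -0.38 without and -0.07 with anti-LTβR, so the summed kappa value of -0.22 lay above the median gene. The lambda values of ADU-S100 over untreated rest on few cells, since 3 untreated cells held 18004 of 20993 lambda variable UMIs. With ADU-S100, 4 lambda cells held 18177 of 21628. Each value rests on 1 library per group, and these differences were not tested.

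Cells with none of the 5 B-lineage genes also passed the light-chain limit. They were most frequent in the combination, at 0.389% of such cells (53 of 13619), against 0.0799% of T cells in the same library (1 of 1252).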

How the results depend on the processing

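No paired analysis was possible because each group had 1 library, and for the same reason no replicate could be left out. Of the values that answer a comparison, 219 stayed within their own interval (or 1.5 times a count) under an alternative and 55 moved. The 219 include the alternatives with another T cell percentile, which left every value unchanged because the minimum of 10 UMIs set the limit. They also include all 48 IgA values, which were read against wide intervals because IgA cells were few. The 219 are therefore not read as a measure of stability. Alternatives with summed constant and variable genes and with the plasmacytoid dendritic gate left out were chosen after seeing the data. Log2 ratios of Igkc to untreated moved without doublet removal to -0.51 (ADU-S100) and 2.38 (anti-LTβR), and over all deposited cells to 2.48 (anti-LTβR) and 3.003 (combination). They moved with immunoglobulin genes out of the total to 2.38 and 2.90, without the top cell to -0.51, 2.42 and 2.92, and with the summed genes to -0.22, 1.45 and 2.09. The combination over anti-LTβR stood at 0.47, 0.53, 0.52 and 0.64 (no doublet removal, all deposited cells, immunoglobulins out, summed genes). For the lambda sum, all deposited cells gave 0.15, 3.45 and 3.32, immunoglobulins out 3.03 for the combination, and leaving out the top cell -0.66, 3.53 and 3.47, with -0.064 for the combination over anti-LTβR. Summed genes gave 2.08, 2.25 and 0.17. Iglc3 with ADU-S100 turned to -0.46 without the top cell. Positive cells were 91.1%, 95.6%, 88.6% and 83.7% with at least 2 B-lineage genes, 58.9%, 53.8%, 74.6% and 65.0% without other gates, and 60.9%, 53.8%, 57.4% and 61.1% at 1000 UMIs. The untreated lambda share was 6.00% with at least 2 B-lineage genes, 4.76% without other gates, 5.45% without the plasmacytoid dendritic gate, 7.14% at 1000 UMIs and 7.14% by variable genes. The untreated IgM share was 0 in these settings other than thinning, and 28.6% with at least 10 heavy-chain UMIs, and the untreated IgG share was 0 without other gates. Lambda cells led by Iglc2 and Iglc3 numbered 19 and 5 at 80% of the lambda UMIs. With genes of at least 50 UMIs, 1 listed gene (Dntt) was 2-fold lower with anti-LTβR, and 2 (Ikzf3 and Pax5) were higher and 1 (Dntt) lower with the combination. With immunoglobulins in the total, 0 were higher with ADU-S100. For other moves the cause was not tested. The untreated and ADU-S100 lambda shares rest on 66 and 44 cells.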
